A study of Mus musculus with 16 samples.

Results

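The acute phase proteins are plasma proteins whose synthesis in the liver changes with injury, infection or inflammation. The group described here was the products of 10 genes: the serum amyloid A genes Saa1, Saa2, Saa3 and Saa4, lipocalin 2 (Lcn2), the orosomucoids Orm1 and Orm2, haptoglobin (Hp), hemopexin (Hpx) and serum amyloid P component (Apcs). Members were the rows of the authors' table whose mouse Ensembl ID has one of these symbols, which gave 10 of the 35275 gene IDs. All 10 passed the filter on low values used for the tests.

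RNA was sequenced from the livers of mice with an intact Zfp36l1 gene (WT) and of mice lacking it in the liver only (LKO), each on a control diet or on a diet with ethanol. There were 4 groups of 4 libraries: WT control, LKO control, WT ethanol and LKO ethanol. The Zfp36l1 protein attaches to AU-rich elements of transcripts and hastens their decay. The WT control group gives the background level of each transcript. The promoter that drove the deletion, the strain, sex and age of the mice and the make-up and duration of the diets are not given in the sources used here.

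In the acute phase response, macrophages that sense damage or microbes release interleukin 6, interleukin 1 and tumour necrosis factor. Interleukin 6 binds its receptor on hepatocytes and, through the shared subunit gp130 (Il6st), activates JAK kinases and the transcription factor STAT3. C/EBP factors and NF-kappaB act beside STAT3 on the promoters of the positive acute phase genes, whose products rise in plasma, while the negative ones, such as albumin, fall. In mice, Saa1, Saa2 and Apcs are among the major positive reactants.

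Values are FPKM, the reads of a gene divided by its length and by the total of the library, so levels may be set side by side between genes. Totals ran from 9890475 to 24768569 reads per library. WT ethanol library 2 had the lowest total, and the 15 other libraries had at least 19069903. That library stood apart in other ways: mitochondrial transcripts took 22.5% of its reads against 3.64% to 6.97% elsewhere, and its median Spearman correlation with the other libraries was 0.691 against 0.905 to 0.951. Many values below are therefore also given without it. Among the 15 others, the first principal component of the values with group means subtracted held 40.1% of the variance and set libraries 1 and 2 apart from libraries 3 and 4 in every group; the labels name no batch. In 5 of the 8 pairs of control and ethanol libraries with the same genotype and number, the numbers in their titles are also consecutive. Zfp36l1 lay at 9.30 to 25.5 FPKM in the WT libraries and at 0.572 to 1.76 in the LKO libraries. All 10 hepatocyte markers listed, among them Alb, Apob and Ttr, passed the filter.

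All 10 members are protein-coding genes. In the GENCODE M21 annotation of GRCm38, the serum amyloid A genes formed a cluster on chromosome 7, with Saa3 at chr7:46711998-46715700, Saa4 at chr7:46727998-46732603, Saa1 at chr7:46740497-46742980 and Saa2 at chr7:46751790-46754313. Orm1 (chr4:63344560-63348163) and Orm2 (chr4:63362449-63365878) were neighbours on chromosome 4. Lcn2 (chr2:32384633-32388252), Hp (chr8:109575128-109579172), Hpx (chr7:105591613-105600137) and Apcs (chr1:172893961-172895041) stood apart from these clusters.

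The promoters of 8 members were found in the RefSeq sequences of GRCm38.p6; those of Orm1 and Hp were not analysed here. The 250 bases before the start are printed for Lcn2, the member with the clearest response to the diet, for Saa1 and Saa2, the pair that varied most alike, and for Orm2, which varied with them. The start is that of RefSeq, which for Saa1 and Orm2 is the outer end of the annotated gene given above and for Lcn2 and Saa2 lies 513 and 43 bases inside it. Sequences run 5′ to 3′ on the gene's own strand, and capitals mark each match to the C/EBP motif TTNNGCAA on either strand.
Lcn2 (chr2:32387740-32387989, - strand): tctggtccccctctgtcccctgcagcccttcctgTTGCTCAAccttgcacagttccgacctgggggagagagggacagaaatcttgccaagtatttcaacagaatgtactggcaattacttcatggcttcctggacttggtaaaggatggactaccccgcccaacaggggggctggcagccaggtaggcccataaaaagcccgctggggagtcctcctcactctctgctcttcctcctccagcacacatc
Saa1 (chr7:46742981-46743230, - strand): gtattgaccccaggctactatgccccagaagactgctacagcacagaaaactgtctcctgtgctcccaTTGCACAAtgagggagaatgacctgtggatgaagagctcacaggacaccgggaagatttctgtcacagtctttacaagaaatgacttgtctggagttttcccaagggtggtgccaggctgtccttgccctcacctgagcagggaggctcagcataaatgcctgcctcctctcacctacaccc
Saa2 (chr7:46751583-46751832, + strand): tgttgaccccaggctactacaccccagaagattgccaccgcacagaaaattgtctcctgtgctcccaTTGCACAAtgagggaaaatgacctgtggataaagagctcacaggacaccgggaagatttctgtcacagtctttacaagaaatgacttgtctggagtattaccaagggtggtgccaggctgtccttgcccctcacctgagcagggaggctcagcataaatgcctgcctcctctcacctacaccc
Orm2 (chr4:63362199-63362448, + strand): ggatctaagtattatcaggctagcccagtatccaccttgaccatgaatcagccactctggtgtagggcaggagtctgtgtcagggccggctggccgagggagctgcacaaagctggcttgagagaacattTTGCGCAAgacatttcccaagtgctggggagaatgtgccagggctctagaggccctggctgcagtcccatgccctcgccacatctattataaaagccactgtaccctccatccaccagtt
The upstream stretches of Saa1 and Saa2 were 94.8% identical, 238 of 251 aligned columns. A match to TTNNGCAA was found in 7 of the 8 members, against 9.56% of all 32851 promoters in the table and 7.98% of the 8660 that belong to genes tested here. Its first base lay 182 bases before the start in Saa1, 183 in Saa2, 216 in Lcn2, 120 in Orm2, 99 in Saa3 and 200 in Hpx, and Saa4 held 2 matches, 245 and 52 bases before the start. The STAT motif TTCNNNGAA was found in 1 of 8 members, Apcs, against 7.02% of all promoters and 6.04% of those of tested genes. The NF-kappaB consensus had no match in these windows, against 7.25% and 8.42%. A match is a string of letters and not a shown binding site, and a missing match says nothing of sites outside the window.

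The AU-rich 7-mer TATTTAT, the kind of element that the ZFP36 family binds, was searched in the 3′ untranslated region of 1 annotated transcript per member. It was found in 0 of 10 members, against 27.3% of the 10469 tested genes with such a region. The members' regions were short, 69 to 232 bases in 9 of them, where the median over tested genes was 967 bases. Saa4 had 1524 bases and held 1 ATTTA.

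By mean level over the 16 libraries, Hp was 16th, Hpx 27th and Orm1 47th of the 11298 tested genes. Saa1 ranked 370, Lcn2 384, Apcs 448, Saa4 572, Orm2 633 and Saa2 761, and Saa3 was far lower at rank 3176. The rank of Lcn2 pools unlike groups, with means of 24.2 and 21.5 FPKM in WT and LKO control and 538 and 152 in WT and LKO ethanol. It also leans on 1282 FPKM in WT ethanol library 4. The 10 members together took 0.766% to 1.13% of the reads in WT control livers, 0.816% to 1.33% in LKO control, 1.17% to 2.43% in WT ethanol and 0.730% to 1.53% in LKO ethanol. The 2.43% was that of WT ethanol library 2, and the next highest of that group was 1.66%. Hp was the highest member in every library except WT ethanol library 3, where Hpx was higher.

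**Figure D1:**
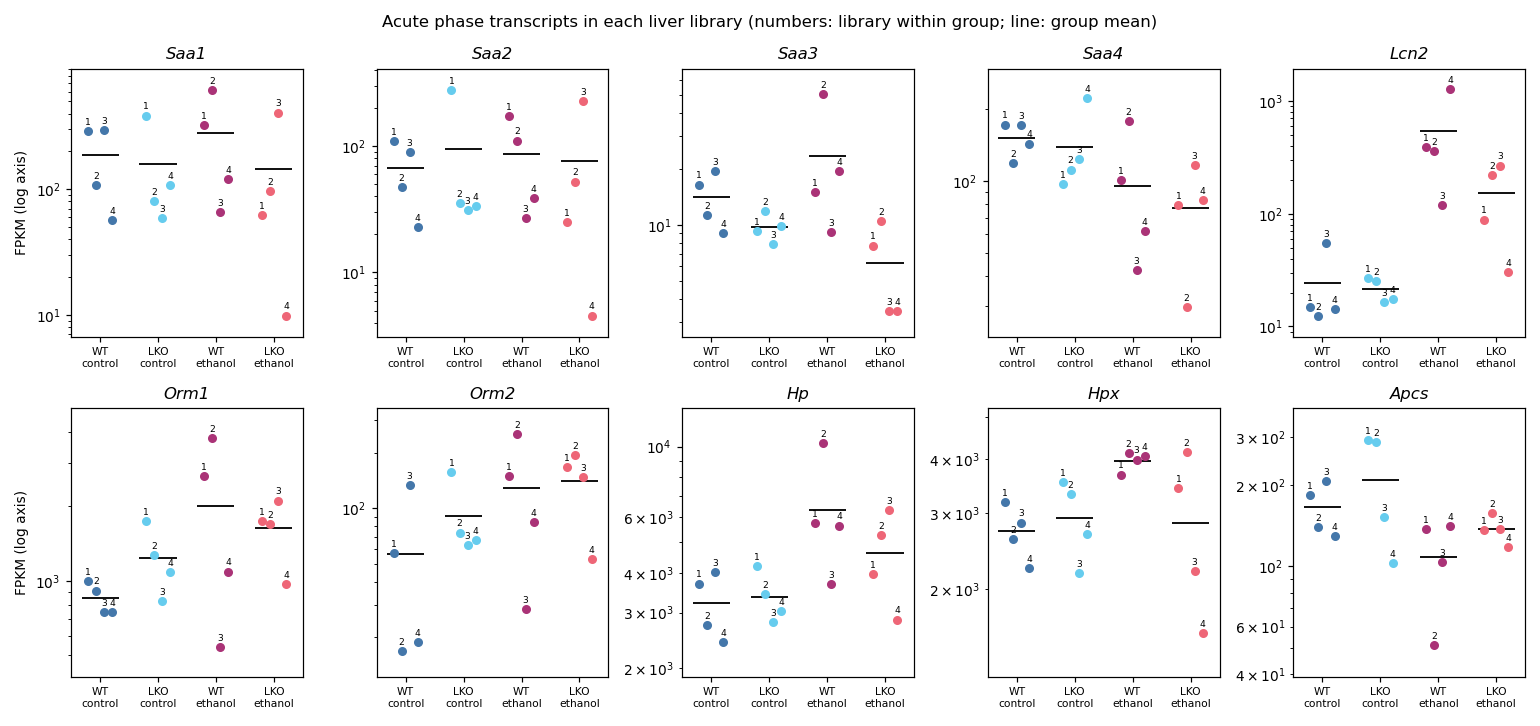
FPKM of each member (log axis) in each of the 16 libraries, by group; points are libraries with their number in the group and lines are group means. Lcn2 is higher in all ethanol than in all control libraries of the same genotype, while Saa1 and Saa2 spread widely within every group.

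The main question was how the ethanol diet changed these transcripts in each genotype. In WT livers Lcn2 rose, by 18.6-fold on the FPKM + 1 scale, and no other member passed the test. In LKO livers no member passed it, although Lcn2 was higher in every ethanol library than in any control library. Of the 10 members, 8 lay above zero in WT, with a median log2 difference of 0.52 beside -0.02 over all tested genes. In LKO 4 lay above zero, with a median of -0.30 beside 0.06. With WT ethanol library 2 left out, 6 were above zero in WT, with a median of 0.25 beside 0.17 over all genes. With array weights, a fit that weights libraries by their spread, 3 were above zero in WT, with a median of -0.35 beside 0.229 over all genes.

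A gene was called at a Benjamini-Hochberg adjusted p under 0.05 over the 11298 genes in limma's test of log2(FPKM + 1). In WT, 1 of 10 members was called, and 4.18% of all tested genes. In LKO, 0 of 10 were called, and 0.425% of all genes; 1 member had an unadjusted p under 0.05, beside 9.19% of all genes, and voom on recovered reads also called 0, beside 0.434%. Averaged over both genotypes, 1 of 10 members was called beside 7.78% of all genes. Without WT ethanol library 2, the count was 1 in WT beside 9.48%, 0 in LKO beside 3.62%, and 2 for the average, Lcn2 and Saa4, beside 20.5%. Ethanol and control libraries did not overlap for 2 members in WT, Lcn2 and Hpx, and for 1 in LKO, Lcn2; over all tested genes the groups did not overlap for 10.1% in WT and 12.3% in LKO.

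Lcn2 encodes a lipocalin that binds bacterial iron carriers and so withholds iron. In WT control livers it measured 14.96, 12.3, 55.3 and 14.2 FPKM in libraries 1 to 4, and in WT ethanol livers 389.6, 362, 119 and 1282. In LKO control livers the values were 27.0, 25.1, 16.5 and 17.5, and in LKO ethanol livers 88.8, 221, 268 and 30.5. The groups did not overlap in either genotype, and the ethanol groups spread far more than the controls, with WT ethanol library 4 alone above 1000 and LKO ethanol library 4 just above the highest LKO control.

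The group means of Lcn2 were 24.2 ± 20.8 FPKM in WT control and 538 ± 511 in WT ethanol, 21.5 ± 5.31 in LKO control and 152 ± 111 in LKO ethanol (SD, n = 4). The log2 difference in WT was 4.22 with a standard error (SE) of 0.69 (limma, adjusted p = 0.00478), and 4.25 without WT ethanol library 2 (adjusted p = 0.00497). In LKO it was 2.37 with an SE of 0.69 (adjusted p = 0.176), and without LKO ethanol library 4 it was 2.99 and passed the test (adjusted p = 0.0452), as did 0.779% of all genes. Among libraries 1 and 2 of each group, without WT ethanol library 2, the difference was 4.75 in WT and 2.38 in LKO, and among libraries 3 and 4 it was 3.74 and 2.36. The average over both genotypes was 3.29 with an SE of 0.49 (adjusted p = 0.000844).

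Lcn2 is also made by neutrophils. Of 13 neutrophil markers listed, 9 stayed under 1 FPKM in every library, among them Ly6g, Camp, Ngp, Mpo and Elane. Their summed level was 1.72 to 6.99 FPKM in WT control, 2.89 to 6.11 in LKO control, 4.08 to 12.98 in WT ethanol and 4.03 to 21.9 in LKO ethanol. S100a8, S100a9 and Retnlg made up most of these sums. In bulk tissue, a change in the number of such cells and a change in the RNA of each cell cannot be told apart. The part of neutrophils in the Lcn2 result was not tested.

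Haptoglobin binds free haemoglobin and hemopexin binds free haem, and both carry their cargo back to the liver and its macrophages. Hp measured 3701, 2748, 4012 and 2428 FPKM in WT control livers and 5734, 10236, 3700.2 and 5639 in WT ethanol livers. In LKO control it measured 4206, 3436, 2807 and 3031, and in LKO ethanol 3969, 5281, 6327 and 2851. WT ethanol library 2 held the highest value, and the groups overlapped in both genotypes. The log2 difference of Hp was 0.91 in WT with an SE of 0.32 (adjusted p = 0.121) and 0.41 in LKO (adjusted p = 0.826). The average was 0.66 with an SE of 0.23 (adjusted p = 0.0875), and it passed without WT ethanol library 3, without LKO ethanol library 4, and with a term for the split of libraries 1 and 2 from 3 and 4 (WT ethanol library 2 left out). Those fits called 7.57%, 8.27% and 32.6% of all genes. Retnlg, 1 of the neutrophil markers above, was among the genes whose levels followed Hp most closely, and that part of the result was not tested.

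Hpx measured 3191, 2609, 2855 and 2245 FPKM in WT control and 3688, 4129, 3994 and 4072 in WT ethanol. All 4 WT ethanol livers lay above all WT controls. In LKO control the values were 3540.2, 3321, 2181 and 2690.2, and in LKO ethanol 3426, 4164, 2203 and 1581, so the LKO groups overlapped. The log2 difference of Hpx was 0.55 in WT with an SE of 0.29 (adjusted p = 0.297) and -0.12 in LKO (adjusted p = 0.995). The ratio of Hp to Hpx was 1.05 to 1.41 in the WT control livers, 1.04 to 1.29 in LKO control, 0.926 to 2.48 in WT ethanol, with 1.555 at most without library 2 of that group, and 1.16 to 2.87 in LKO ethanol.

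The orosomucoids are acidic glycoproteins of plasma that bind drugs and lipids. Orm1 measured 995, 913, 748 and 748 FPKM in WT control and 2659, 3769.5, 541 and 1090.1 in WT ethanol. In LKO control it measured 1749.8, 1274, 829.5 and 1086, and in LKO ethanol 1740.3, 1692, 2112 and 972. WT ethanol library 3 was the lowest of all 16 libraries, so the WT groups overlapped although the other 3 ethanol livers were above every WT control. Its log2 difference was 0.88 in WT with an SE of 0.47 (adjusted p = 0.311), 0.46 there without WT ethanol library 2, and 0.40 in LKO (adjusted p = 0.930).

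Orm2 measured 57.3, 16.8, 133 and 18.8 FPKM in WT control, 157, 73.8, 63.2 and 67.4 in LKO control, 150.3, 253, 28.4 and 84.4 in WT ethanol, and 168, 196, 148 and 52.9 in LKO ethanol. The groups overlapped in every comparison. The log2 difference of Orm2 with ethanol was 1.28 in WT with an SE of 0.68 (adjusted p = 0.310), 0.83 there without WT ethanol library 2, and 0.59 in LKO (adjusted p = 0.926). The 2 transcripts are 91.0% identical over 775 bases, with a longest identical run of 141 bases, and how reads that fit both were counted is not given in the sources used here. The split between them is therefore uncertain. As deposited, Orm1 exceeded Orm2 by 5.61 to 54.4 times.

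Saa1 and Saa2 encode the acute forms of serum amyloid A, which travel on high-density lipoprotein. Saa1 measured 289, 109, 297 and 56.5 FPKM in WT control, 386, 80.8, 59.3 and 109 in LKO control, 327, 619, 66.1 and 120.0 in WT ethanol, and 62.3, 96.9, 408 and 9.88 in LKO ethanol. Each group held livers with high and with low levels, and all groups overlapped. The highest library of a group exceeded the lowest by 5.26 to 41.3 times for Saa1. Its log2 difference with ethanol was 0.40 in WT, with a 95% interval from -1.57 to 2.37, and -0.73 in LKO, with an interval from -2.70 to 1.24. The WT difference was -0.14 without WT ethanol library 2. Intervals this wide leave room for rises and falls of more than 2-fold.

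Saa2 measured 109, 47.5, 89.0 and 23.0 FPKM in WT control, 278, 35.4, 31.1 and 33.6 in LKO control, 172, 110.4, 27.0 and 38.8 in WT ethanol, and 24.9, 52.3, 225 and 4.57 in LKO ethanol. The livers that were high in Saa1 were mostly high in Saa2. Its log2 difference was 0.22 in WT (adjusted p = 0.918), -0.01 there without WT ethanol library 2, and -0.67 in LKO (adjusted p = 0.962). Saa1 exceeded Saa2 by 1.39 to 5.61 times, with the highest ratio in WT ethanol library 2 and 3.335 at most in the other libraries. The 2 transcripts are 87.3% identical and share 51 stretches of 50 bases, so their split may also depend on the counting.

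Saa3 is the form made also by macrophages and fat cells. It measured 16.5, 11.3, 19.6 and 9.04 FPKM in WT control and 15.0, 50.6, 9.15 and 19.5 in WT ethanol, where only library 2 lay above the control range. In LKO control it measured 9.27, 11.9, 7.90 and 9.83, and in LKO ethanol 7.74, 10.4, 3.44 and 3.42. The log2 difference with ethanol was 0.49 in WT (adjusted p = 0.562), 0.04 without WT ethanol library 2, and -0.68 in LKO (adjusted p = 0.723). These low levels rest on 41 to 266 reads per library.

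Saa4 encodes the constitutive form of serum amyloid A. It measured 172, 119, 172 and 143 FPKM in WT control and 101, 178, 42.6 and 62.1 in WT ethanol. In LKO control it measured 97.1, 112, 124 and 222, and in LKO ethanol 79.6, 29.7, 117 and 83.3. The ethanol livers were mostly lower, but WT ethanol library 2 was above every WT control. The log2 difference was -0.84 in WT with an SE of 0.44 (adjusted p = 0.308), -0.91 in LKO (adjusted p = 0.569) and -0.88 on average (adjusted p = 0.0988). Without WT ethanol library 2 the average was -1.06 with an SE of 0.27, and Saa4 then passed the test (adjusted p = 0.0135). With the term for the split of libraries added, it passed in WT as well, at -1.26 (adjusted p = 0.0373), in a fit that called 19.7% of all genes.

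Apcs encodes a pentraxin that binds debris and amyloid. It measured 183, 140.0, 207 and 129.7 FPKM in WT control, 292, 287, 152 and 103 in LKO control, 138, 51.3, 104 and 141 in WT ethanol, and 136, 158, 137 and 118 in LKO ethanol. WT ethanol library 2 held the lowest value, and the groups overlapped. The log2 difference with ethanol was -0.68 in WT with an SE of 0.37 (adjusted p = 0.328), -0.36 there without WT ethanol library 2, and -0.48 in LKO (adjusted p = 0.816).

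**Figure D2:**
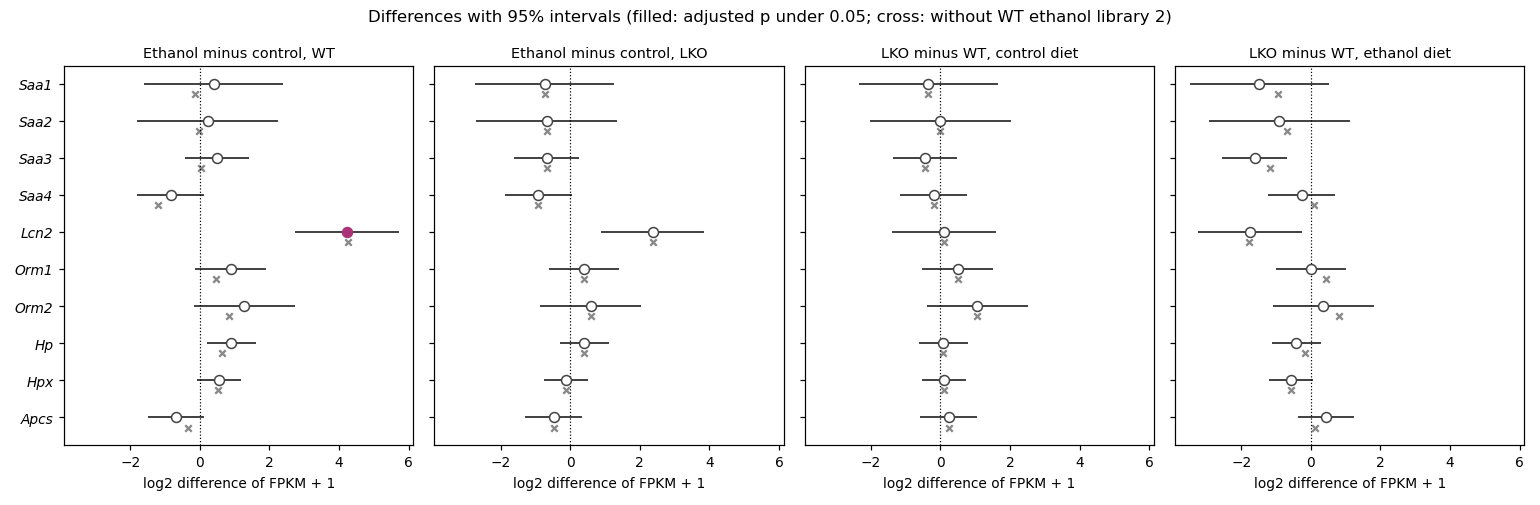
Log2 differences of FPKM + 1 with 95% intervals for the 10 members in 4 comparisons; filled points passed the test and crosses leave out WT ethanol library 2. Lcn2 in WT is the filled point, at 4.22, and the intervals of Saa1 and Saa2 are the widest in all 4 panels.

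The next question was whether the members differed between LKO and WT livers. No member passed the test on either diet. On the control diet 0 of 10 members were called by limma, beside 0.00885% of all genes, and 0 had an unadjusted p under 0.05, beside 3.45%. With ethanol 0 of 10 were called beside 0.0797%, and 2, Saa3 and Lcn2, had an unadjusted p under 0.05, beside 11.9% of all genes. Averaged over the diets, 0 of 10 were called beside 0.142%, and 1, Saa3, had an unadjusted p under 0.05, beside 10.4%, a share near that of all genes. Voom on recovered reads called 0 members in each of these comparisons, beside 0.00885%, 0.0443% and 0.0885% of all genes. With the term for the split of libraries and without WT ethanol library 2, Saa3 was called on average, at -0.842 (adjusted p = 0.0302), 1 of 10 members beside 11.1% of all genes. Array weights called 3 members with ethanol beside 30.7% of all genes, and 3 on average beside 34.1%. These shares of members are near those of all genes. LKO and WT libraries overlapped for all 10 members on both diets. Over all tested genes, 9.25% did not overlap on the control diet and 2.69% with ethanol.

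On the ethanol diet Saa3 was lower in LKO than in WT livers by a log2 difference of -1.61 with an SE of 0.42 (adjusted p = 0.200), and by -1.17 without WT ethanol library 2 (adjusted p = 0.150). Lcn2 was lower by -1.75 with an SE of 0.69 (adjusted p = 0.347), and Hpx by -0.58 with an SE of 0.29 (adjusted p = 0.439). Neither these nor any other member's difference met the threshold. Leaving out 1 library at a time, the difference of Lcn2 ran from -2.31 to -1.13. Under the other alternatives it ran from -1.79 to -0.845. On the control diet the log2 differences of the members ran from -0.45 for Saa3 to 1.06 for Orm2, and the 95% interval of Lcn2 ran from -1.36 to 1.56 around 0.10.

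The interaction, the ethanol response of LKO minus that of WT, was called by limma for 0 of 10 members and for 0% of all genes, and 0 members had an unadjusted p under 0.05, beside 3.20%. For Lcn2 it was -1.85 with an SE of 0.98, and its 95% interval from -3.91 to 0.22 included zero (adjusted p = 0.927). The smaller ethanol difference of Lcn2 in LKO was therefore not shown to differ from that in WT. The interaction lay below zero for 9 of 10 members, with a median of -0.68 beside 0.09 over all genes. With array weights 5 of 10 lay below zero and the median was 0.05 beside -0.197 over all genes. Leaving out WT ethanol library 2, it lay below zero for 9 of 10, with a median of -0.42 beside -0.12 over all genes. The members varied together between livers, so these counts are not independent.

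Livers of 1 group differed widely in some of these transcripts, and part of the members varied together. The within-group SD of log2(FPKM + 1) was 1.54 for Saa1 and 1.56 for Saa2, above that of 99.8% of all tested genes. It was 1.12 for Lcn2 and 1.09 for Orm2, while Hp, at 0.45, and Hpx, at 0.37, lay near the median of all genes, 0.42. LKO control library 1 was the highest of its group for 8 of 10 members, WT ethanol library 2 for 7, and WT control library 3 and LKO ethanol library 3 for 6 each. LKO ethanol library 4 was the lowest of its group for 9 of 10, LKO control library 3 and WT ethanol library 3 for 8 each, and WT control library 4 for 7.

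After subtracting group means, 41 of the 45 pairs of members had a positive Pearson r over the 16 libraries. By permutation within groups (100000 resamples, two-sided, adjusted over the 45 pairs), 13 pairs passed at 0.05 with r and 16 with Spearman's rho. Without WT ethanol library 2, 20 pairs passed with r. These libraries share their scaling and depth between genes.

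Saa1 and Saa2 followed each other most closely, with r = 0.959 (adjusted permutation p = 0.00202) and rho = 0.953 (adjusted permutation p = 0.00157). Without the 2 libraries farthest from the median of Saa1, r was 0.920. Saa1 and Hp had r = 0.913 (adjusted permutation p = 0.00135) and rho = 0.915 (adjusted permutation p = 0.00135), and r was 0.896 without the 2 farthest libraries. Orm2 and Hp had r = 0.858 (adjusted permutation p = 0.0036) and rho = 0.882 (adjusted permutation p = 0.00236), and r was 0.837 without the 2 farthest. Among libraries 1 and 2 of the groups, leaving out WT ethanol, r was 0.982 for Saa1 with Saa2, 0.841 for Saa1 with Hp and 0.845 for Orm2 with Hp. Among libraries 3 and 4 the same pairs had r of 0.987, 0.952 and 0.890. These values come from 6 and 8 libraries, with 2 per group, and were not tested.

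Lcn2 and Hp had r = 0.669 (adjusted permutation p = 0.0955) and rho = 0.747 (adjusted permutation p = 0.0257), with r = 0.722 without the 2 farthest libraries. Without WT ethanol library 2, their r was 0.846 (adjusted permutation p = 0.00236). Apcs and Hp had r = 0.038 over 16 libraries and 0.618 without WT ethanol library 2 (adjusted permutation p = 0.00986), so their relation hangs on that library, where Hp was highest and Apcs lowest. Without it Apcs also passed with Orm2 (r = 0.610), Hpx (r = 0.520), Lcn2 (r = 0.490) and Saa3 (r = 0.478). It did not pass with Saa1, Saa2, Orm1 or Saa4. Saa4 had no pair that passed with r. It had r = 0.0093 with Lcn2 over all libraries (adjusted permutation p = 0.978), and -0.844 among libraries 1 and 2 and 0.683 among libraries 3 and 4. Its r with Apcs was -0.541 (adjusted permutation p = 0.121), and -0.318 without WT ethanol library 2. Among libraries 3 and 4 its r was 0.795 with Orm1, 0.781 with Hpx and 0.683 with Hp, against 0.0437, -0.409 and -0.405 among libraries 1 and 2, from 8 and 6 libraries. Within each of these sets r rests on 2 libraries per group, too few to show that a sign differs between the sets.

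**Figure D3:**
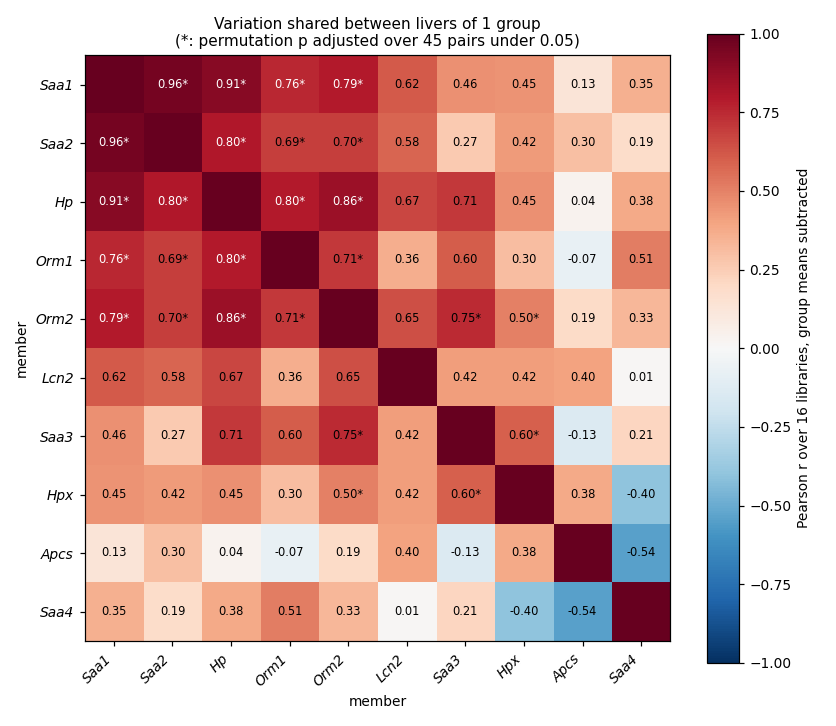
Pearson r of log2(FPKM + 1) between members over the 16 libraries after subtracting group means; both axes list the 10 members, and asterisks mark an adjusted permutation p under 0.05. Saa1, Saa2, Hp, Orm1 and Orm2 form a block of high r, with 0.959 at its highest, while Apcs and Saa4 lie outside it. For Apcs this depends on WT ethanol library 2, without which its r was 0.618 with Hp and 0.610 with Orm2.

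Over the 16 libraries with group differences kept in, the tested genes outside the members most like each member were as follows, given as a description. Lcn2 was closest to Bcam (r = 0.958), a laminin-binding adhesion molecule, and Syt12 (r = 0.958), a synaptotagmin. Orm1 was closest to its paralog Orm3 (r = 0.920) and the mitochondrial gene mt-Nd1 (r = 0.863). Hp was closest to Hotairm1 (r = 0.914) and Retnlg (r = 0.886), and Hpx to Sf3b5 (r = 0.919) and Stom (r = 0.884). Saa4 was closest to Ldhd (r = 0.920) and Gm16174 (r = 0.775). Saa3 was closest to Rps20 (r = 0.894) and Ogfrl1 (r = 0.883), and Apcs to Cd302 (r = 0.855) and Clec4g (r = 0.850). For Orm2 the closest were Mrap and Adcy1, both with r = 0.727, below its r of 0.776 with the member Orm1. The closest genes were Dpm3 (r = 0.656) and Rpl35 (r = 0.642) for Saa1, and Atp6v1g1 (r = 0.597) and Cox7a2l (r = 0.584) for Saa2. Part of these values leaned on WT ethanol library 2. Without it, r was 0.797 for mt-Nd1 with Orm1, 0.818 for Retnlg with Hp and 0.785 for Ogfrl1 with Saa3. With Apcs it was then 0.718 for Cd302 and 0.727 for Clec4g. Bcam with Lcn2 and Ldhd with Saa4 changed little, to 0.954 and 0.913.

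The other genes of the pathway were read from 5 lists. Among cytokine signals and their receptors, 13 of 20 were tested. With ethanol 0 rose and 1 fell in WT, beside 4.18% of all tested genes called. This was Lifr, a receptor that pairs with gp130, with a log2 difference of -1.30 and an SE of 0.32 (adjusted p = 0.0316). Its level was 18.4 to 34.2 FPKM in WT control and 4.55 to 12.3 in WT ethanol, with the lowest value in WT ethanol library 2 and the next at 10.66, without overlap. In LKO 0 were called, beside 0.425% of all genes, and Lifr measured -1.10 (adjusted p = 0.176). Leaving out WT ethanol library 2, Lifr passed in LKO too (adjusted p = 0.0243), Il1rap, a co-receptor of interleukin 1, fell beside it in WT, and on average 2 rose, Tnfrsf1a and Osmr, and 2 fell. That fit called 9.48% of all genes in WT, 3.62% in LKO and 20.5% on average. Il6ra, the interleukin 6 receptor, measured -0.91 in WT (adjusted p = 0.270) and -0.38 without that library, and Il6st -0.59 (adjusted p = 0.452) and -0.07. Transcripts of the cytokines Il6, Tnf and Osm stayed under 1 FPKM in all libraries but 1, Il6 in WT ethanol library 2, at 3.72. The interleukin 1 genes Il1b and Il1a were higher, at most 5.52 and 3.46 FPKM, both in LKO ethanol library 2, and were tested. Il1b measured 0.01 in WT (adjusted p = 0.99) and 0.71 in LKO (adjusted p = 0.658). Il1a measured -0.13 in WT (adjusted p = 0.867) and 0.14 in LKO (adjusted p = 0.995). The median of the list was -0.25 in WT, 0.21 there without WT ethanol library 2, and 0.08 in LKO.

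Among signal transducers, transcription factors and feedback genes, 24 of 26 were tested. By limma 0 were called with ethanol in either genotype, beside 4.18% of all genes in WT and 0.425% in LKO. The nearest on average were Rela, a subunit of NF-kappaB, at 0.62 (adjusted p = 0.0684), and Bcl3, a nuclear partner of NF-kappaB, at 0.85 (adjusted p = 0.0938). Stat3 measured -0.51 in WT (adjusted p = 0.588), Socs3, its feedback inhibitor, -0.38 (adjusted p = 0.720), and Cebpb -0.42 (adjusted p = 0.697). All 3 turned sign without WT ethanol library 2, to 0.04, 0.18 and 0.21. Cebpd also depended on that library. It was listed at 0 in WT ethanol library 2 and at 31.2, 19.3 and 13.2 FPKM in the other 3, against 8.21 to 10.3 in WT control. Its log2 difference was -0.04 with that library and 1.06 without it (adjusted p = 0.0281). Without it, 2 genes of the list passed in WT, Cebpd and the phosphatase gene Ptpn11, 1 in LKO, Bcl3, and 5 on average, these 3 with Rela and Junb, which for 24 genes are shares near the 9.48%, 3.62% and 20.5% of all genes.

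Among 40 tested genes of 45 other positive acute phase genes, 2 rose in WT and 0 fell, a share near the 4.18% of all tested genes called. These were Cd14, the co-receptor for bacterial lipopolysaccharide, with a log2 difference of 2.67 and an SE of 0.63 (adjusted p = 0.0253), and Mt1, a metallothionein, with 2.49 and an SE of 0.63 (adjusted p = 0.0344). Without WT ethanol library 2 Mt1 measured 2.03 (adjusted p = 0.0513). In LKO 0 rose and 2 fell, beside 0.425% of all genes called. Hamp, which encodes the iron hormone hepcidin, fell by -4.16 (adjusted p = 0.00563), and the complement component C9 by -1.94 (adjusted p = 0.0389). Hamp ran from 966 to 4389 FPKM in LKO control and from 40.7 to 246 in LKO ethanol. Averaged over genotypes, where 7.78% of all genes were called, Cd14 and Mt1 rose and Hamp, C9 and Mbl2, a mannose-binding lectin, fell. Leaving out WT ethanol library 2, 2 rose and 6 fell on average, Mbl1, Mug1 and Serping1 being added, which for 40 genes is near the 20.5% of all genes called in that fit. The genes that fell are listed as positive reactants, and the median of the list was -0.38 in WT, -0.20 there without that library, and -0.12 in LKO. Orm3 measured 2.50 in WT (adjusted p = 0.208) and 1.41 without it, with 170.5, 379, 1.39 and 14.5 FPKM in the WT ethanol libraries against 2.602 to 10.5 in WT control.

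Of the 17 negative acute phase genes, all tested, 3 fell in WT and 0 rose, beside 4.18% of all tested genes called. Cyp7a1, the rate-limiting enzyme of bile acid synthesis, measured -3.19 (adjusted p = 0.0139), Serpina6, the corticosteroid-binding globulin of plasma, -2.22 (adjusted p = 0.0209), and Cyp2e1, an ethanol-oxidising cytochrome, -1.61 (adjusted p = 0.0241). In LKO 0 were called, beside 0.425% of all genes. These counts also rest on WT ethanol library 2. Without it, 2 of the list rose in WT, the apolipoprotein gene Apoa4 at 3.75 (adjusted p = 0.00247) and Ahsg at 0.66 (adjusted p = 0.0344), beside the same 3 that fell. That fit called 9.48% of all genes in WT and 3.62% in LKO. Serpina6 then fell in LKO (adjusted p = 0.0373), and on average 3 rose and 5 fell, beside 20.5% of all genes called. The median of the list was -0.305 in WT, -0.0624 there without that library, and -0.108 in LKO. Among receptors and clearance of acute phase proteins, 12 of 16 were tested. Of these, 1 rose in both genotypes, beside 4.18% of all genes called in WT and 0.425% in LKO. This was Hmox1, haem oxygenase, with a log2 difference of 1.76 in WT (adjusted p = 0.0213) and 2.15 in LKO (adjusted p = 0.0283). Hmox1 lay at 8.59 to 11.7 FPKM in WT control and 32.04 to 47.9 in WT ethanol, and at 8.27 to 14.1 in LKO control and 17.8 to 96.3 in LKO ethanol, without overlap in either genotype. Fpr2, a receptor for serum amyloid A, also rose in WT without WT ethanol library 2, at 1.18 (adjusted p = 0.0461). In none of the 5 lists was a gene called between LKO and WT on either diet or for the interaction. With WT ethanol library 2 left out, 1 was, Hamp, with a log2 difference of LKO minus WT on the ethanol diet of -3.02 (adjusted p = 0.0357).

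**Figure D4:**
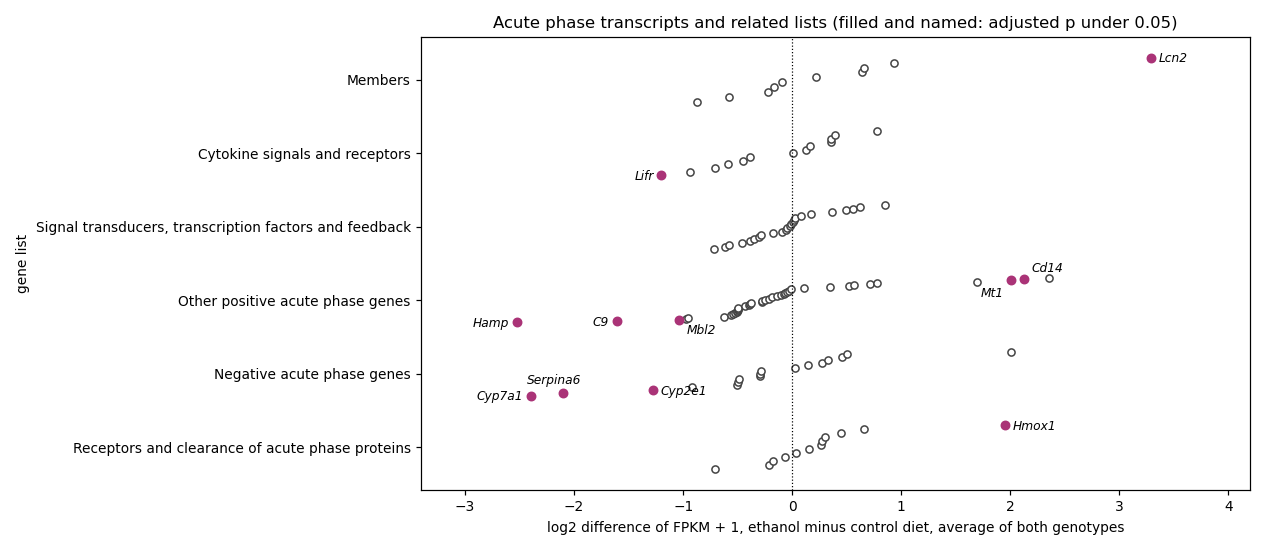
Log2 differences of ethanol minus control diet, averaged over both genotypes, for the members and the genes of the 5 lists; each point is a gene and filled points with names passed the test. Lcn2, at 3.29, lies farther from zero than any gene of the lists, while Hamp, Cyp7a1 and Serpina6 lie farthest below it.

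Markers of other cell types were read beside these values. The summed Kupffer cell and macrophage markers, 10 of 12 tested, ran from 174 to 492 FPKM in WT control, 161 to 557 in LKO control, 318 to 609.6 in WT ethanol and 114 to 608 in LKO ethanol. These sums overlapped throughout. The 609.6 was that of WT ethanol library 2, where C1qa alone held 422.5 FPKM, against 83.3 to 154 in the rest of that group. Of the 10 tested markers, Marco alone did not overlap in WT, at 5.73 to 12.8 FPKM in control and 17.96 to 49.6 with ethanol. Marco overlapped in LKO. Over all tested genes, 10.1% did not overlap in WT. Of 6 adipocyte markers, 1, Cidec, was tested and Lep was listed at 0 in every library; their sum was 2.48 to 4.32 in WT control, 2.43 to 3.44 in LKO control, 9.47 to 95.3 in WT ethanol and 2.845 to 76.7 in LKO ethanol, nearly all of it Cidec, a lipid droplet gene. The WT groups did not overlap and the LKO groups did; the lowest WT ethanol value was that of library 2, with Cidec at 25.2 FPKM in the next. The part of macrophages and fat cells in the Saa3 and Lcn2 values was not tested.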

How the data were processed

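Liver RNA of 16 mice was measured in 4 groups of 4 libraries, grouped by the treatment given in the labels. Library numbers follow the record order; the labels state no pairing between groups. The members and the gene lists were chosen with earlier results of these data known.

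The authors deposited 1 table of FPKM values for 35275 Ensembl gene IDs. The submitters' processing notes name the mm10 genome, fastp, STAR 2.6.1, HTSeq and DESeq2, with no role or order. Strand and the treatment of reads that fit several genes are not given in the sources used here, nor is whether the libraries come from separate litters or cages, so p-values measure the spread between these libraries. Symbols came from GENCODE M21 on GRCm38, which matched 34490 IDs.

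Genes with FPKM of at least 1 in at least 4 libraries were kept (11298). The tests ran on log2(FPKM + 1), which understates changes of low genes, in 1 group-means model with limma 3.58.1 in R 4.3.3 (lmFit, eBayes with trend), two-sided, with Benjamini-Hochberg adjustment over all kept genes and calls at 0.05. Other steps used Python 3.11.15 with numpy 2.4.6 and pandas 2.3.3. Within a gene the FPKM values were whole multiples of 1 read's worth: for 20520 genes, 100% of values lay within 0.1 of a whole read, and no library's total differed from the sum of its recovered reads by more than 0.022%. Library totals and the voom alternative come from these reads.

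All members were named. From each list, the called genes with the smallest adjusted p were named, at most 4 per comparison, and where none was called the 2 with the smallest adjusted p; Il6ra, Il6st, Stat3, Socs3, Cebpb and Cebpd were always named. For each member the 2 kept genes outside the members with the highest r were named. Il6, Tnf, Osm, Il1a, Il1b, the genes called only without WT ethanol library 2 and the separate marker genes were named after their values were seen.

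Alternatives were no filter, a filter at FPKM of at least 5, a pseudocount of 0.1, median of ratios scaling, array weights, leaving out each library, and a term for the split between libraries 1 and 2 and libraries 3 and 4 without WT ethanol library 2. The voom fit and a fit with a block for pairs of libraries were added after the data were seen. The procedure was tried on simulated data of 11114 genes for ethanol against control diet in WT. There it called 79.8% of 198 genes changed by a log2 difference of 2, with 3.66% of calls unchanged genes. Whether these rates hold for the measured libraries, with their split and WT ethanol library 2, was not tested.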

Additional observations from a re-analysis of the deposited data

Results flagged for a closer look

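Within groups of 4 libraries, the gap of the highest or lowest library to its nearest neighbour was compared with the whole range of the group. Of 40 combinations of member and group, 4 had a gap in FPKM above the critical value of Dixon's test for 4 libraries, and chance gives about 1 in 20 for normal values, which FPKM need not follow. On log2(FPKM + 1) 3 of 40 were above it, with gaps of 0.942 for Saa2, 0.872 for Lcn2 and 0.83 for Orm2, the last only just, and Saa1 was not, at 0.678. In LKO control library 1, Saa1 measured 386 FPKM against 59.3 to 109 in the other 3 libraries (gap 0.849 of the range), Saa2 278 against 31.1 to 35.4 (gap 0.983) and Orm2 157 against 63.2 to 73.8 (gap 0.886). These genes vary together, so the 3 are not independent. In WT control library 3, Lcn2 measured 55.3 FPKM against 12.3 to 14.96 (gap 0.937), and without that library the log2 difference of Lcn2 between LKO and WT on the control diet was 0.58.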

How the results depend on the processing

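The call of Lcn2 held in WT and on average under all 24 alternatives, with log2 differences of 3.31 to 4.78 in WT and 2.72 to 3.60 on average, and adjusted p from 0.000969 to 0.0238 in WT. Of 1650 values of members under alternatives, 1560 kept their direction and their side of the threshold, 0 lost a call, 19 gained one and 71 changed sign. None of those 71 was called.

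Leaving out each library in turn, the log2 differences of the following members crossed zero. For ethanol against control in WT Saa1 ran from -0.142 to 0.928 and Saa2 from -0.223 to 0.652. For ethanol against control in LKO Saa2 ran from -1.55 to 0.228, Saa1 from -1.56 to 0.179 and Hpx from -0.334 to 0.131. For LKO against WT on the control diet Saa2 ran from -0.762 to 0.299, Lcn2 from -0.116 to 0.579, Hp from -0.0482 to 0.193 and Hpx from -0.00644 to 0.227. For LKO against WT on the ethanol diet they ran for Saa4 from -0.573 to 0.142, Orm1 from -0.501 to 0.432 and Orm2 from -0.219 to 0.819. For the interaction they ran for Saa4 from -0.385 to 0.33, Apcs from -0.123 to 0.403 and Saa2 from -1.78 to 0.00269. For the average ethanol difference Saa1 ran from -0.583 to 0.289, Saa2 from -0.664 to 0.226 and Saa3 from -0.318 to 0.0737. For the average difference of LKO from WT they ran for Orm1 from -0.0027 to 0.464. The number of members called ran from 0 to 1 for ethanol in LKO, with Lcn2 called without LKO ethanol library 4, and from 1 to 2 for the average ethanol difference, with Saa4 added without WT ethanol library 2 and Hp without WT ethanol library 3 or LKO ethanol library 4. Those fits called 0.779% of all genes for ethanol in LKO and 20.5%, 7.57% and 8.27% on average. The pairs of members that passed rose from 13 to 20 without WT ethanol library 2.

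With array weights, WT ethanol library 3 weighed 5 and libraries 1 and 2 of that group 0.278 and 0.0418, so that group then rests mostly on 1 library. All genes called rose from 472 to 4334 in WT. Of the 10 members, those called were 3 for ethanol in WT (Saa4, Lcn2 and Hpx) beside 38.4% of all genes, 3 for LKO against WT on the ethanol diet (Saa3, Orm1 and Hpx) beside 30.7%, 4 for the average ethanol difference (Saa3, Saa4, Lcn2 and Apcs) beside 36.7% and 3 for the average of LKO against WT (Saa3, Orm1 and Orm2) beside 34.1%, all near the share of all genes. With these weights the sign changed, to the values given, for ethanol against control in WT Saa1 -0.974, Saa2 -0.915, Saa3 -0.306, Orm1 -0.394 and Orm2 -0.0208; for LKO against WT on the control diet Saa2 0.0174; for LKO against WT on the ethanol diet Saa2 0.161, Saa4 0.765 and Hp 0.089; for the interaction Saa1 0.192, Saa2 0.143, Saa4 1.06, Orm1 0.676, Orm2 0.444 and Apcs -0.226; for the average ethanol difference Orm1 -0.0562; for the average difference of LKO from WT Saa2 0.089, Saa4 0.233 and Hp 0.112.

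With the term for the split of libraries, without WT ethanol library 2, members called were 2 for ethanol in WT (Saa4 and Lcn2) beside 19.7% of all genes, 3 for the average (Saa4, Lcn2 and Hp) beside 32.6% and 1 for the average of LKO against WT (Saa3) beside 11.1%, also near the share of all genes, and the sign changed for ethanol against control in WT Saa1 -0.003, for LKO against WT on the ethanol diet Saa4 0.159, for the interaction Saa4 0.346 and Apcs -0.191. Median of ratios scaling changed the sign for LKO against WT on the control diet Saa2 0.125, and moved the median of all genes in that comparison from -0.10 to 0.00064; its calls in WT were 379 higher and 386 lower against 292 and 180. Voom changed the sign for LKO against WT on the ethanol diet Orm1 -0.0015. Other counts of all genes moved as well: with no filter 283 were called in WT, with the stricter filter 257, and in LKO 18 with no filter and 122 with median of ratios scaling against 48. The cause of these changes was not tested. Saa3 rests on as few as 41 reads in a library, which limits its precision. The labels give no replicate numbers shared between groups, but control and ethanol libraries of 1 genotype can be paired by the order of the numbers in their titles. Deviations from the group means had r of 0.233 to 0.458 in 7 of these 8 pairs and -0.0615 in the pair with WT ethanol library 2, and 4 of 8 control libraries were closest to their own partner, so this pairing is a hint from the data. With a block for these pairs, the members called remained 1 in WT (Lcn2, adjusted p = 0.0238), 0 in LKO, 1 on average (Lcn2, adjusted p = 0.00717) and 0 for the interaction, and all genes called in LKO went from 48 to 6. LKO and WT cannot be compared within such pairs.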
